A study of Mus musculus with 32 samples.

Results

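Translation factor genes were examined as binding sites of IGF2BP3 in mouse MLL-Af4 leukemia. Members were all genes whose symbol starts with Eif or Eef followed by a digit and that are listed in both deposited RNA-seq tables, without the eIF2 kinases (symbols starting with Eif2ak) and without pseudogenes. The rule found 60 genes among 23620 genes common to both tables, and peaks were joined to them by the Ensembl gene ID that each peak carries. Lin- cells were lineage-depleted bone marrow cells that had been transduced with an MLL-Af4 retrovirus, selected with G418 and grown in culture. CD11b+ cells were taken by magnetic selection, according to the study's methods from the spleens of mice with MLL-Af4 leukemia, although the names of the CD11b+ eCLIP libraries begin with bm. In eCLIP, RNA crosslinked to a protein is pulled down with an antibody and sequenced, and a size-matched input (smInput) from the same lysate is sequenced beside it. All 10 IGF2BP3 eCLIP libraries came from cells of WT mice with MLL-Af4, 6 from Lin- cells (3 biological and 3 technical) and 4 from CD11b+ cells (2 biological and 2 technical), each with a smInput library of its own number. The RNA-seq libraries came from WT and I3KO cells with MLL-Af4, 3 of each genotype in each cell type, where I3KO is a germline deletion of Igf2bp3 that arose from leaky Vav1-Cre activity. The RNA-seq values used here are means over the 6 libraries of a cell type, both genotypes together, so no genotype comparison was made.

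Initiation factors (eIFs) bring the small ribosomal subunit, the initiator tRNA and the mRNA together and find the start codon. The eIF4F complex reads the 5′ cap through eIF4E, the scaffold eIF4G and the helicase eIF4A, eIF3 bridges eIF4G to the small subunit, and eIF2 carries the initiator tRNA. Elongation factors (eEFs) then deliver aminoacyl-tRNA (eEF1A, recharged by the eEF1B subunits) and move the ribosome along (eEF2). Several of these genes also carry small nucleolar RNAs (snoRNAs) in their introns, short nuclear RNAs that guide the modification of ribosomal and other RNA and are cut out of the host intron after splicing. IGF2BP3 is an RNA-binding protein of fetal tissue and of leukemia with KH and RRM domains.

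Peaks were called by the authors in each library with CLIPper, and filtered peaks are those left after removal of peaks that overlap smInput peaks. The Lin- eCLIP libraries held 4040 to 10042 filtered peaks and the CD11b+ libraries 7085 to 10054. Read depth was unknown, so a gene without a peak was not shown to be unbound. Lin- smInput library 5 held only 217 peaks, against 1047 to 1885 in the other 9 inputs. Among the marker genes, Itgam, which encodes CD11b itself, had a mean of only 17.0 normalized counts in the CD11b+ table and was not listed in the Lin- table, whereas the other 6 myeloid markers ranged from 1742 (Cd14) to 72146 (Lyz2) in CD11b+ cells. In Lin- cells Lyz2 stood at 20990 and Csf1r at 7910. The progenitor markers Kit, Cd34, Flt3 and Meis1 stood at 6974, 9052, 9396 and 2452 in Lin- and at 673, 1291, 390 and 356 in CD11b+ cells. Mpo, a granule enzyme of myeloid precursors, had 101212 and 84102, and Cebpe, a factor of granulocyte maturation, 507 and 1437. The RNA-seq tables were normalized separately, so these counts do not measure differences in level between the cell types. In CD11b+ cells the 4 B cell markers ranged from 69.1 to 433 and the 4 globin genes from 915 to 1268, and their part in the results was not tested. Fewer cells of a type and less RNA per cell cannot be told apart in such bulk samples.

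Translation factor mRNAs were abundant in both cell types. Compared per kb of exon, the quantity that allows levels to be set between genes, Eef1a1 (eEF1A, the carrier of aminoacyl-tRNA) led with 52827 normalized counts per kb in Lin- cells and 80955 in CD11b+ cells. Eef2, the translocase, followed with 36678 and 18724 per kb. In Lin- cells the next were Eef1g at 9060, Eif5a at 8174 and Eif4a1 at 8025 per kb. In CD11b+ cells they were Eif4a1 at 6422, Eif5a at 6348 and Eif3h at 4430 per kb. These values are the authors' means without a spread, so the order of near neighbors such as Eif5a and Eif4a1 cannot be tested. The median of the 60 genes was 1182 counts per kb in Lin- and 663 in CD11b+ cells. Lowest in both cell types was the methyltransferase Eef1akmt3 with 3.64 and 0.474 per kb (9.9 counts in Lin- and 1.29 in CD11b+ cells). Next came Eif5a2 with 28.0 and 6.43 per kb. The Eif4a3-like genes had 47.3 and 135 (Eif4a3l1) and 132 and 198 per kb (Eif4a3l2). The tables were normalized separately, so counts printed side by side do not measure differences between cell types. A cutoff of 1000 counts need not mean the same level in both tables. Levels were set between cell types only by rank within each table. Of the 43 translation factors with a mean of at least 1000 counts in both tables, 35 held a higher percentile rank in Lin- cells, as did 51.1% of all 3827 genes at that level. Of the members with at least 1000 counts in Lin- cells, Eif1a (percentile 88.3 of the Lin- and 74.5 of the CD11b+ table) and Eif2a (91.5 and 82.7) were the farthest below their Lin- rank in CD11b+ cells. Eif2b2 (77.9 and 83.0), Eif3j2 (77.1 and 81.5) and Eif1 (93.9 and 96.8) were the farthest above it.

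IGF2BP3 peaks were found on most of these genes in Lin- cells and on fewer of them in CD11b+ cells. In Lin- cells 46 of 60 members had at least 1 filtered peak in any library, where 29.5% of all genes did. In CD11b+ cells 29 of 60 did, where 27.8% of all genes did. Only 6325 of the 23620 genes reached a mean of 1000 counts in Lin- and 4486 in CD11b+ cells. Among genes with a mean of at least 1000 counts, 43 of 48 members had a peak in Lin- cells against 76.5% of all such genes, and 27 of 43 had one in CD11b+ cells against 68.4%. With a peak in at least 2 biological libraries required, 31 of 48 members at this level passed in Lin- cells (background 46.9%) and 14 of 43 in CD11b+ cells (background 37.9%). The share of members was above the background of genes over this floor in Lin- cells and below it in CD11b+ cells, and neither gap was tested. Above the floor, members and background genes were not matched by level.

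**Figure D1:**
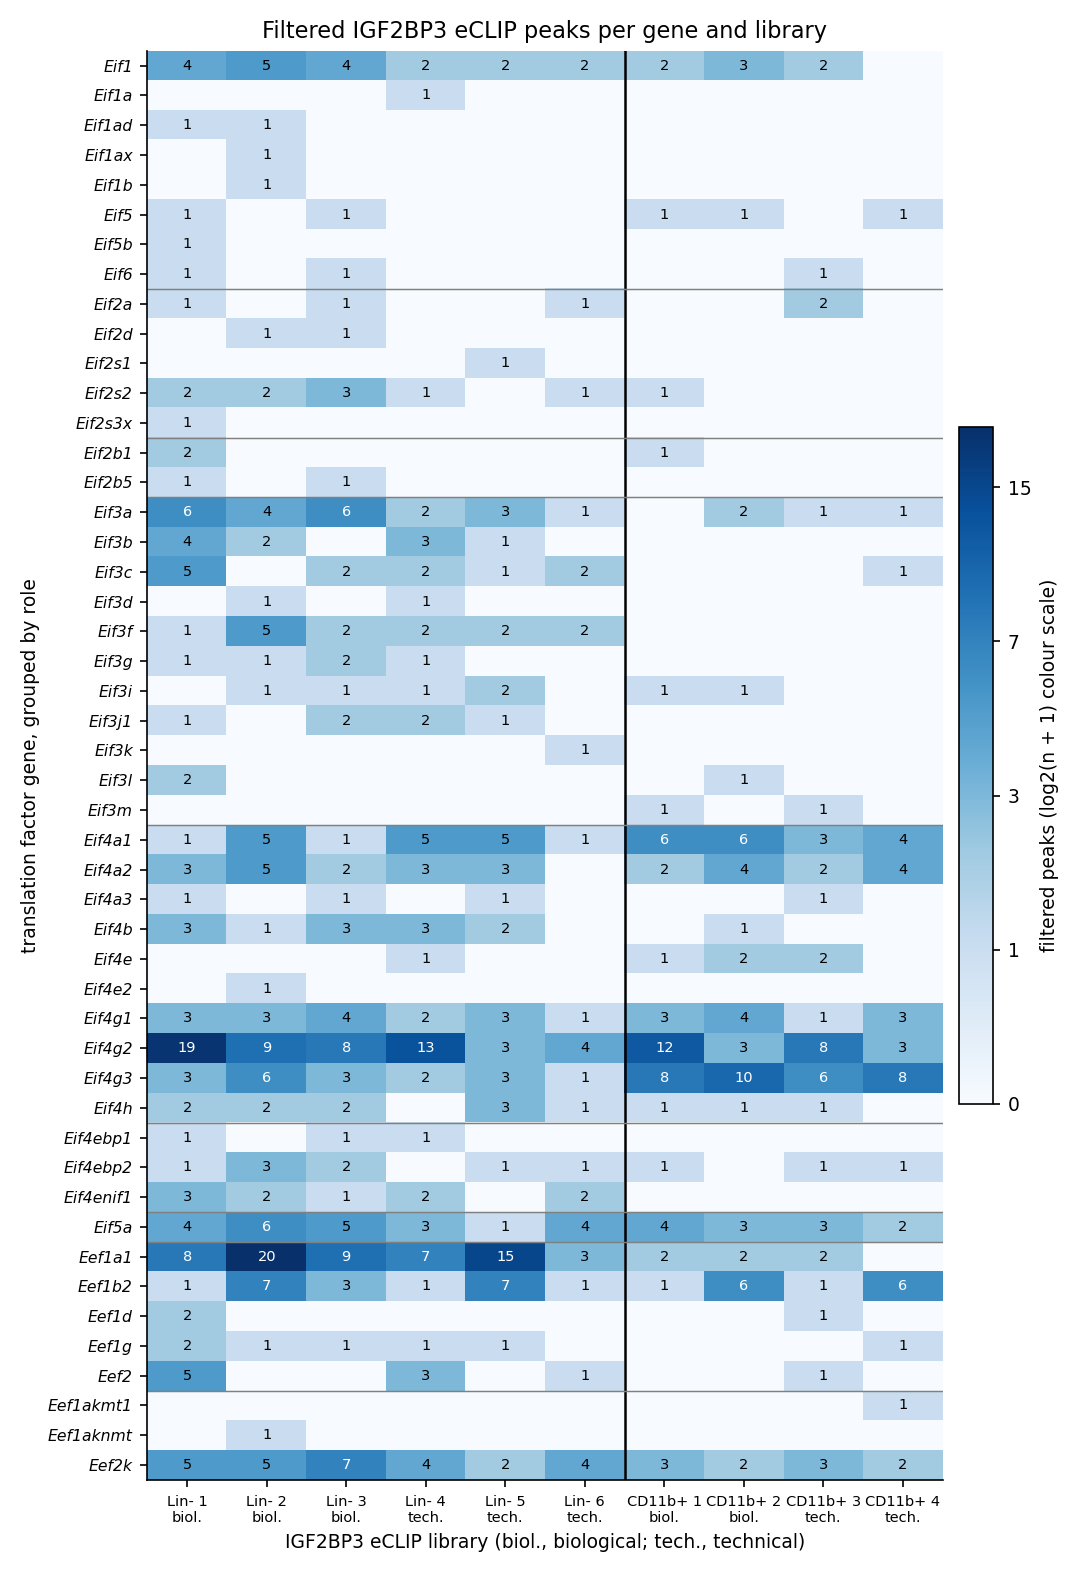
Number of filtered IGF2BP3 eCLIP peaks (color, log2(n + 1) scale, with the number printed) on each of the 48 translation factor genes with a peak, in each of 10 eCLIP libraries (columns), grouped by role (rows). Eif4g2 and Eef1a1 hold the darkest cells in Lin- libraries, up to 19 and 20 peaks, and Eif4g3 is darker in every CD11b+ library than in any Lin- library except for a tie at 6.

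Per library, 35, 28 and 29 members had a filtered peak in the 3 biological Lin- libraries and 18 and 17 in the 2 biological CD11b+ libraries. The groups did not overlap. The mean was 30.7 ± 3.79 (SD, n = 3) against 17.5 ± 0.707 (SD, n = 2), a difference of 13.2 genes (exact permutation test, two-sided, p = 0.1, the smallest that 3 against 2 libraries allow). With only peaks of a CLIPper value below 0.001, the difference was 4.83 genes (means of 20.3 and 15.5). The technical libraries had 26, 22 and 19 members with a peak in Lin- cells and 20 and 14 in CD11b+ cells, and here the cell types overlapped. As a share of all filtered peaks of a library, members took 1.39%, 1.02% and 0.921% in the biological Lin- libraries and 0.599% and 0.517% in the CD11b+ libraries. These did not overlap either (difference 0.55 percentage points, exact permutation p = 0.1, again the smallest possible).

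In total 27 members were bound in both cell types, 19 had peaks only in Lin- libraries, 2 (Eef1akmt1 and Eif3m) only in CD11b+ libraries, and 12 had none. In each of the 5 biological libraries 11 members were bound, and 7 were bound in all 10 libraries, technical ones included. Of the 43 members with a mean of at least 1000 counts in both tables, 26 were bound in both cell types (66.4% of all 3827 such genes were), 13 in Lin- cells only (background 16.9%) and 1 in CD11b+ cells only (background 7.53%). At this level 11 of the 43 were bound in all 5 biological libraries (background 21.2%) and 7 in all 10 (background 9.98%). The 7 were Eef1b2, Eef2k, Eif4a1, Eif4g1, Eif4g2, Eif4g3 and Eif5a. Of these, Eef1b2, Eif4a1, Eif4g1 and Eif4g2 carry intronic snoRNAs. On these snoRNAs lay 14 of 14, 14 of 19, 10 of 11 and 19 of 26 of their CD11b+ peaks. In Lin- cells 14 of 20, 17 of 18, 9 of 16 and 35 of 56 did. Neither count was repeated without snoRNA peaks. The peaks of both cell types merged into 224 regions with a median length of 50.5 bases. Of these, 113 were seen in 1 library only, 35 in both cell types, 146 in Lin- libraries only and 43 in CD11b+ libraries only. Only 3 regions were present in all 10 libraries, and each of the 3 lay on an annotated snoRNA inside an intron.

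These 3 regions are shown because they were the most reproducible sites on translation factor genes. The first was in Eif4g2, which encodes a relative of eIF4G that works without eIF4E (also called DAP5), at chr7:111076059-111076175 on the minus strand of mm10, on the snoRNA gene Gm23262. The second was in Eif4g1, the main eIF4F scaffold, at chr16:20684238-20684316 on the plus strand, over Snord66. The third was in Eif4a1, the eIF4F helicase, at chr11:69668851-69668907 on the minus strand, on Gm25835. The sequences are given 5′ to 3′ from the reference genome, with capitals on the bases covered by peaks of the largest number of libraries, 10 of 10 for Eif4g2 and Eif4a1 and 8 of 10 for Eif4g1.
Eif4g2: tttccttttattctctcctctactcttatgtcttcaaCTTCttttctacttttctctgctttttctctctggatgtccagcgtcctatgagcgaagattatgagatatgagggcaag
Eif4g1: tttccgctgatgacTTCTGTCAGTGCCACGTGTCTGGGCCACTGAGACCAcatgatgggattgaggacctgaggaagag
Eif4a1: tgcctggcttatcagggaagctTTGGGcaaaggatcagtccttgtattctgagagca

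The snoRNAs also dominated the input. Of 192 smInput peaks on translation factor genes, 184 overlapped an annotated snoRNA on the same strand. In all, 8 members carry such a snoRNA within the gene, namely Eif4a2 with 5, Eif4a1 and Eef1b2 with 3 each, Eif3a with 2 and Eef2, Eif4g1, Eif4g2 and Eif5 with 1 each, and all 8 had a smInput peak. The most input peaks fell on Gm26447 (37 peaks, 10 of 10 inputs) and Gm24201 (18 peaks) in Eif4a2, Gm22988 (21) and Gm24029 (20) in Eif4a1, and Snora28 in Eif5 (20 peaks, 10 of 10 inputs). The other 8 input peaks were on Eif3a (5 peaks) and, with 1 peak each, on Eef1g, Eif4e2 and Eif4g3.

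The smInput filter treated these snoRNAs unequally. Over all libraries, the eCLIP peaks on Snora28 of Eif5 went from 80 before the filter to 1 after it, those on Gm24029 of Eif4a1 from 52 to 0 and those on Gm26447 of Eif4a2 from 51 to 4. By contrast, 54 of 79 peaks stayed on Gm23262 of Eif4g2, 28 of 36 on Gm25835 of Eif4a1 and 19 of 22 on Snord66 of Eif4g1, where the inputs held 5 peaks, 1 peak and 1 peak. After the filter 91 of 450 member peaks in Lin- cells and 71 of 184 in CD11b+ cells still lay on a snoRNA, which is 20.2% and 38.6%, beside 5.05% and 3.31% of filtered peaks on all genes of both tables. The corresponding shares were 32.6% and 59.0% for the 83 cytoplasmic ribosomal protein genes, many of which also host snoRNAs.

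Before the filter, eCLIP and smInput libraries gave about the same share of their peaks to translation factor genes. In Lin- cells the eCLIP shares were 1.69%, 1.27% and 1.26% and those of the inputs of the same numbers 1.49%, 1.23% and 1.65%. The groups overlapped (mean 1.41% ± 0.246 against 1.46% ± 0.212, SD, n = 3 each, exact permutation p = 1, where the smallest possible p is 0.1). In CD11b+ cells the eCLIP shares were 0.931% and 0.841% and the input shares 1.5% and 0.743%, and the groups overlapped as well (exact permutation p = 1, smallest possible 0.333). The makeup of these peaks differed. In Lin- cells 42.9%, 47.6% and 43.2% of the eCLIP member peaks lay on a snoRNA, against 92.6%, 100% and 95.5% of the input member peaks (difference -51.5 percentage points, exact permutation p = 0.1, the smallest possible). In CD11b+ cells the shares were 60.7% and 71.7% against 96.0% and 92.9% (exact permutation p = 0.333, the smallest possible). Without snoRNA peaks, an alternative chosen after the data were seen, members took 1.16%, 0.8% and 0.794% of the Lin- eCLIP peaks and 0.153%, 0% and 0.114% of the input peaks, where 0 of 1015 peaks allows a share of up to 0.296%. In CD11b+ cells they took 0.406% and 0.276% of eCLIP and 0.0828% and 0.0642% of input peaks. The filtered groups of the 2 cell types still did not overlap without snoRNA peaks, at 1.26%, 0.828% and 0.842% in Lin- and 0.423% and 0.294% in CD11b+ cells. The eCLIP and smInput libraries had been deduplicated and called with different settings, and the part of this in the comparison was not tested.

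**Figure D2:**
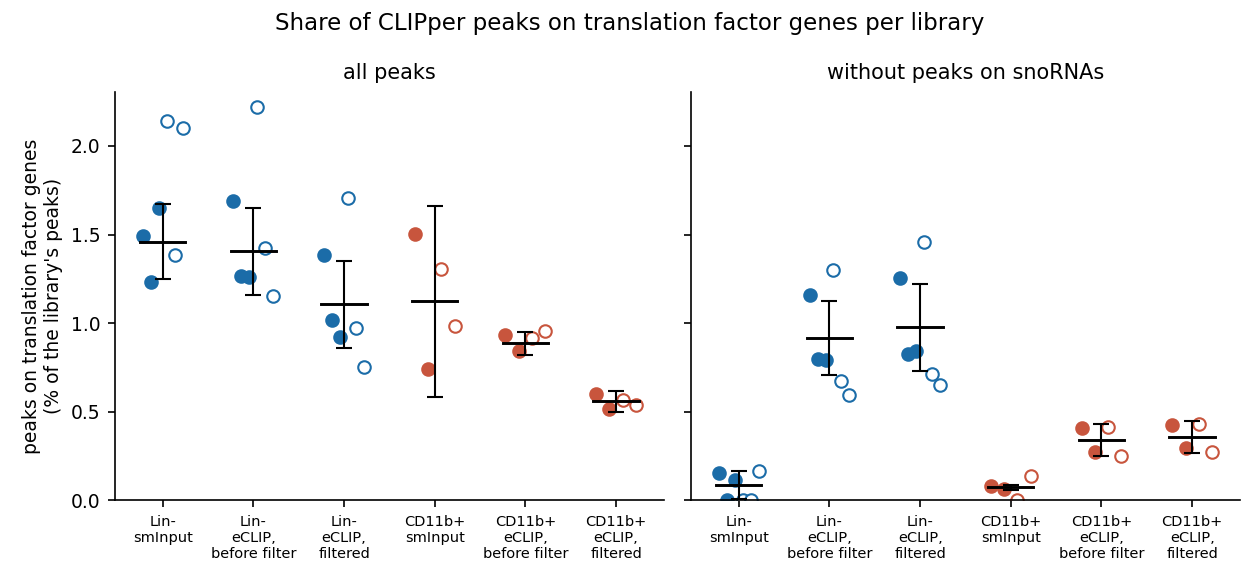
Share of a library's CLIPper peaks that lay on translation factor genes (%, y axis), for smInput, eCLIP before the filter and filtered eCLIP in both cell types, with all peaks (left) and without peaks on snoRNAs (right). Filled points are biological libraries (inputs by their number), open points technical ones, and bars the mean ± SD of the filled points; without snoRNA peaks the inputs lie at 0.167% or less, and the lowest eCLIP library before the filter is at 0.25%.

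Away from snoRNAs, the position of the peaks differed between the cell types. In Lin- cells 72, 23 and 39 of the 102, 102 and 80 filtered member peaks of the biological libraries lay in an intron within 100 bases of an annotated 3′ splice site and off the snoRNAs. In CD11b+ cells 7 of 51 and 4 of 52 did. With snoRNA peaks counted among both the proximal and all intronic member peaks, the proximal share was 75%, 39.7% and 61.9% in Lin- and 16.3% and 12.2% in CD11b+ cells. The groups did not overlap (difference 44.6 percentage points, exact permutation p = 0.2, smallest possible 0.1). With snoRNA peaks left out the shares were 87.8%, 62.2% and 72.2% against 25.9% and 16.0% (exact permutation p = 0.1, the smallest possible). The same contrast was present over all genes, where 56.7% of intronic filtered peaks off snoRNAs in Lin- and 13.2% in CD11b+ cells were within 100 bases of a 3′ splice site, so it reached beyond translation factors.

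Coding exons held 54 of 450 filtered member peaks in Lin- cells and 0 of 184 in CD11b+ cells, and 12.2% and 2.02% of filtered peaks on all genes were in coding exons. Were the 184 peaks independent, 0 would allow a share of up to 1.63% in CD11b+ cells. They fell in 83 regions and repeat across biological and technical libraries, so the true limit is higher. A CD11b+ share below that of all genes was therefore not shown. The Lin- coding peaks belonged to Eef1a1 (36), Eif3f (13), Eif4ebp2 (3), Eif3a (1) and Eef2k (1). They were spread unevenly over libraries, with 2, 23 and 8 in biological libraries 1, 2 and 3 and 1, 15 and 5 in technical libraries 4, 5 and 6. Over all genes, too, library 2 (17.1%) and library 5 (18.3%) had the highest coding shares. By the midpoint of the peak, the intronic share of member peaks was 94.1%, 61.8% and 78.8% in Lin- and 84.3% and 94.2% in CD11b+ biological libraries, and the groups overlapped (difference -11.1 percentage points, exact permutation p = 0.4). The size of this difference rested on single libraries, at -2.84 without Lin- replicate 2, -19.0 without Lin- replicate 1 and -6.1 without CD11b+ replicate 2. With any overlap with an exon counted as exonic, the mean intronic share was 41.1% in Lin- and 81.5% in CD11b+ cells (difference -40.5 percentage points, exact permutation p = 0.1), since many Lin- peaks crossed from intron into exon.

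**Figure D3:**
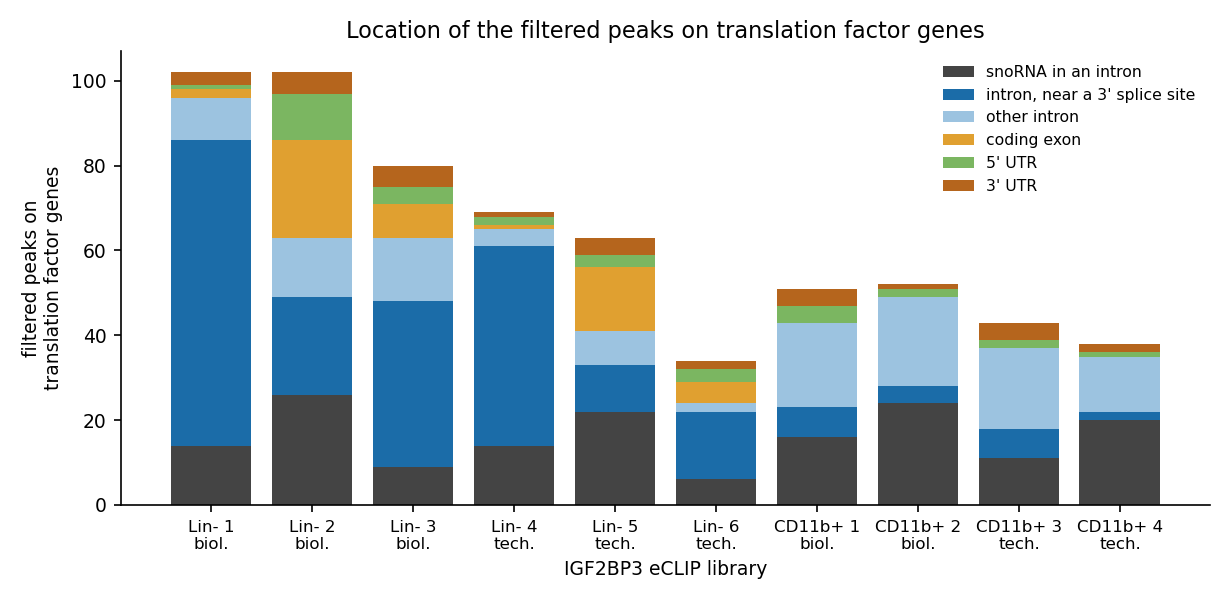
Number of filtered peaks on translation factor genes by location (stacked colors) in each eCLIP library, biological (biol.) or technical (tech.). Peaks within 100 bases of a 3′ splice site are the largest class in Lin- libraries 1, 3, 4 and 6, coding exons appear in Lin- libraries only, and in the CD11b+ libraries snoRNAs and other intronic positions make up most peaks.

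The group of eIF4F and its helpers was formed by symbol. It also holds Eif4a3, Eif4e2 and Eif4g2, for which a place in eIF4F is not implied. All 10 of its genes had a filtered peak in Lin- cells and 9 in CD11b+ cells, with 151 and 110 peaks. Eif4g2 (ENSMUSG00000005610, chr7:111067750-111083030, minus strand) had 19, 9 and 8 peaks in the biological Lin- libraries and 12 and 3 in the CD11b+ libraries, and the groups overlapped. Of its peaks, 35 of 56 in Lin- and 19 of 26 in CD11b+ cells were on its snoRNA. Off the snoRNA the Lin- peaks were intronic, 19 of them near a 3′ splice site, and 5 CD11b+ peaks lay in the 5′ UTR. Eif4a2, the second eIF4A helicase, had 3, 5 and 2 peaks in Lin- and 2 and 4 in CD11b+ libraries, and 12 of its 16 Lin- and 10 of its 12 CD11b+ peaks were on snoRNAs. Eif4a1 had 1, 5 and 1 peaks in Lin- and 6 and 6 in CD11b+ libraries, and before the filter the direction was reversed (mean difference 4.5 peaks, Lin- higher). On its snoRNAs lay 17 of its 18 Lin- and 14 of its 19 CD11b+ peaks over all libraries, and without snoRNA peaks it had 0 in each biological Lin- library and 3 and 0 in the CD11b+ libraries, so the groups then overlapped. Eif4g1 had 3, 3 and 4 against 3 and 4 peaks. Eif4b, which stimulates eIF4A, had 3, 1 and 3 peaks in Lin- and 0 and 1 in CD11b+ libraries, 11 of 12 Lin- peaks near a 3′ splice site. All peaks of Eif4h, another helper of eIF4A, lay in its 3′ UTR, 10 in Lin- (2, 2 and 2 per biological library) and 3 in CD11b+ cells (1 and 1).

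Eif4g3, the third eIF4G gene (chr4:137993022-138208508, plus strand), had more peaks in CD11b+ cells. It had 8 and 10 filtered peaks in the biological CD11b+ libraries and 3, 6 and 3 in the Lin- libraries, so the groups did not overlap (difference of means 5 peaks). The technical libraries had 6 and 8 in CD11b+ and 2, 3 and 1 in Lin- cells. All 32 CD11b+ peaks were intronic and none was within 100 bases of a 3′ splice site, while 6 of 18 Lin- peaks were. One intronic region, chr4:138032711-138032776 (plus strand, mm10), was in all 4 CD11b+ and no Lin- library. Another, chr4:138028261-138028429, was in 4 CD11b+ and 2 Lin- libraries. The first is shown because it was seen in CD11b+ libraries only, and the second because it was found in both cell types. The second is mostly GT repeats, in which reads cannot be placed with certainty. Capitals mark the bases covered in the most libraries, 4 for the first and 6 for the second.
Eif4g3, CD11b+ region: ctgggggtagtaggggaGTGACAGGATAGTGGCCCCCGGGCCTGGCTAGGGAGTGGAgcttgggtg
Eif4g3, shared region: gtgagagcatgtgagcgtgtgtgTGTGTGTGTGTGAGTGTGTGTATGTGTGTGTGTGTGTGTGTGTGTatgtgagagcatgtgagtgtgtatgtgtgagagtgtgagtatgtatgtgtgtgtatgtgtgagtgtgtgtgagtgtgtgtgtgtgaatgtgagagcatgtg

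The cap-binding protein itself, Eif4e, had 0, 0 and 0 peaks in the biological Lin- libraries and 1 and 2 in CD11b+ libraries. It was the third gene, with Eif4a1 and Eif4g3, whose CD11b+ counts all exceeded the Lin- counts in the biological libraries. At a mean of at least 1000 counts in both cell types, 3 of 43 members showed this order and 10 of 43 the opposite one, where 10.6% and 9.67% of all 3827 such genes did. The 10 with more peaks in each biological Lin- library were Eef1a1, Eef1g, Eef2k, Eif1, Eif2s2, Eif3a, Eif3f, Eif3g, Eif4enif1 and Eif4h. These 13 genes were picked by the order of their counts, so no test of it is given. Without snoRNA peaks the order was lost for Eif4a1 and held for the other 12. With the technical libraries included and snoRNA peaks kept, the order held for Eef1a1 and Eif3f only. Eif4g3 then had a tie at 6, and the remaining genes overlapped.

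Of the 3 proteins that bind eIF4E, all were bound in Lin- cells and 1 in CD11b+ cells. Eif4enif1, the transporter that takes eIF4E into the nucleus, had 3, 2 and 1 peaks in the biological Lin- libraries and 0 in each of 4 CD11b+ libraries, and 8 of its 10 peaks were near a 3′ splice site. Eif4ebp2, a repressor that sequesters eIF4E, had 1, 3 and 2 peaks in Lin- libraries, in its 5′ UTR (4), coding sequence (3) and 3′ UTR (1), and 1 and 0 in CD11b+ libraries, where all 3 peaks of the 4 libraries were in the 3′ UTR. Eif4ebp1 had 1, 0 and 1 peaks in Lin- and 0 in all CD11b+ libraries.

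Among 14 genes of eIF3 subunits, 10 were bound in Lin- and 5 in CD11b+ cells, with 79 and 10 peaks. Eif3a, the largest subunit, had 6, 4 and 6 peaks in the biological Lin- libraries and 0 and 2 in the CD11b+ libraries, without overlap. In the technical libraries it had 2, 3 and 1 in Lin- and 1 and 1 in CD11b+ cells. Eif3f had 1, 5 and 2 peaks in Lin- libraries and 0 in every CD11b+ library, a difference of 2.67 that was 1.5 without Lin- replicate 2. Of its 14 peaks, 13 were in its first coding exon, and the region chr7:108934534-108934675 (plus strand) was present in all 6 Lin- libraries. It is shown as a coding site found in all 6, with capitals on the bases covered in each of them, and 76.1% of its bases were G or C.
Eif3f: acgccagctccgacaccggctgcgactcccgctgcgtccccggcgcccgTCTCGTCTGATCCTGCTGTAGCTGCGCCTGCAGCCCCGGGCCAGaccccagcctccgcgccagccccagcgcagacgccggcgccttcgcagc

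Eif3b had 4, 2 and 0 and Eif3c 5, 0 and 2 peaks in the biological Lin- libraries, and each had 0 in the biological CD11b+ libraries. Eif3g had 1, 1 and 2 in Lin- and 0 in CD11b+ libraries, and all 5 of its peaks over the Lin- libraries were near a 3′ splice site. Eif3i had 0, 1 and 1 in Lin- and 1 and 1 in CD11b+ libraries. Eif3h, with a mean of 5801 counts in Lin- and 5736 in CD11b+ cells, had no filtered peak in any library, and it was the only member without one among the 20 with the highest sum of the means of both tables. Eif3e (means 5421 and 2670) had none either.

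The start codon group and the eIF2 branch held few peaks. The start codon group was formed by symbol, and a role in start codon selection is not implied for its members Eif6 and Eif1ad. All 8 of its genes had a peak in Lin- cells and 3 (Eif1, Eif5 and Eif6) in CD11b+ cells. Of these peaks, 19 of the 29 in Lin- and 7 of the 11 in CD11b+ cells were on Eif1, which keeps the scanning ribosome from starting at wrong codons. Eif1 had 4, 5 and 4 peaks in the biological Lin- and 2 and 3 in the CD11b+ libraries (no overlap). In the technical libraries it had 2, 2 and 2 in Lin- and 2 and 0 in CD11b+ cells. Eif5, which triggers GTP hydrolysis on eIF2, had 1, 0 and 1 against 1 and 1. All filtered peaks of Eif5 fell in 1 region of 6 bases, chr12:111540937-111540942, that reaches into the start of Snora28. It was seen in 2 Lin- and 3 CD11b+ libraries. The eIF2 group was formed by symbol too, and a place in the eIF2 complex is not implied for Eif2a and Eif2d. All 5 genes of the eIF2 group had a peak in Lin- and 2 in CD11b+ cells, led by Eif2s2 (eIF2 beta) with 2, 2 and 3 peaks in the biological Lin- and 1 and 0 in the CD11b+ libraries, without overlap. In the technical libraries Eif2s2 had 1, 0 and 1 in Lin- and 0 and 0 in CD11b+ cells. Of the 5 subunits of eIF2B, the exchange factor that recharges eIF2, 2 were bound in Lin- cells (Eif2b1 and Eif2b5) and 1 in CD11b+ cells (Eif2b1). The others, Eif2b2, Eif2b3 and Eif2b4, had no peak, with means of 500 to 1122 counts in Lin- cells.

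The sites of Eif2s2 and Eif4b are shown as examples of Lin- peaks at a 3′ splice site. Each was present in 5 Lin- and no CD11b+ library, with the center of the region 17 bases from the splice site in Eif2s2 (chr2:154878547-154878618, minus strand) and 15 bases from it in Eif4b (chr15:102093611-102093673, plus strand). Capitals mark the bases covered in all 5 libraries.
Eif2s2: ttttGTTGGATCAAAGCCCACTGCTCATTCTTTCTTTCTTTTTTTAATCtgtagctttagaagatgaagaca
Eif4b: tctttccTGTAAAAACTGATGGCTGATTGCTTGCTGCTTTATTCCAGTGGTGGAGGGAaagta

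Eif5a, the hypusine-carrying factor that relieves stalled ribosomes, had 4, 6 and 5 peaks in the biological Lin- libraries and 4 and 3 in the CD11b+ libraries, in introns, both UTRs and near 3′ splice sites. Its paralog Eif5a2, with 141 and 32.3 counts, had none.

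Among the elongation factors, Eef1a1 (ENSMUSG00000037742, chr9:78478449-78489151, minus strand) had 8, 20 and 9 peaks in the biological Lin- libraries and 2 and 2 in the CD11b+ libraries. The groups did not overlap (difference 10.3 peaks, 6.5 without Lin- replicate 2), although by rank the mRNA was at least as high in CD11b+ cells, at rank 2 in that table and rank 4 in the Lin- table. The Lin- peaks were 36 in coding exons, 23 intronic and near a 3′ splice site, and 3 in the 5′ UTR. The gene has many processed copies in the genome, so the reads of its exons are uncertain in placement. A pair of regions was present in all 6 Lin- libraries and 1 CD11b+ library and is shown for that reason. One, chr9:78478929-78478999, crossed from a coding exon into the intron that follows, with its center in the exon 7 bases from the 5′ splice site, and the other spanned an intron with the exon ends on both sides, at chr9:78479524-78479664. Capitals mark the bases covered in 7 libraries.
Eef1a1, exon end: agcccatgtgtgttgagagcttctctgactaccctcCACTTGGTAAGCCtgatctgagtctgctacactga
Eef1a1, intron: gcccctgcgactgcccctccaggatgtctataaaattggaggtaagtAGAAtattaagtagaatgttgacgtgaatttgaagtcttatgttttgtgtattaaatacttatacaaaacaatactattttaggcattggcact

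Eef2 had few peaks. Its normalized count ranked 2 of all genes in Lin- cells (113299), yet it had 5, 0 and 0 peaks in the biological Lin- libraries and 0 and 0 in the CD11b+ libraries. Eef1b2, a subunit of the exchange factor for eEF1A, had 1, 7 and 3 peaks in Lin- and 1 and 6 in CD11b+ libraries, and 14 of its 20 Lin- and all 14 CD11b+ peaks were on snoRNAs. Eef1g had 2, 1 and 1 in Lin- and 0 in both biological CD11b+ libraries. Of 5 modifiers of elongation factors, Eef2k, the kinase that inactivates eEF2, held nearly all peaks, 5, 5 and 7 in the biological Lin- and 3 and 2 in the CD11b+ libraries (no overlap). In the technical libraries Eef2k had 4, 2 and 4 in Lin- and 3 and 2 in CD11b+ cells, which overlapped. Its sites were different in kind, since 23 of 27 Lin- peaks were intronic and near a 3′ splice site and none of 10 CD11b+ peaks was. The Lin- region chr7:120899311-120899379 was in all 6 Lin- and no CD11b+ library, and chr7:120863978-120864046 in all 4 CD11b+ and no Lin- library, both on the plus strand. They are shown to set the site at a splice site beside the deep intronic one, which lay 5669 bases from the nearest 3′ splice site and starts in TG repeats. Capitals mark the bases covered in 6 and 4 libraries.
Eef2k, Lin-: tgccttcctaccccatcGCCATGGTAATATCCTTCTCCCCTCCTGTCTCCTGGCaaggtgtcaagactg
Eef2k, CD11b+: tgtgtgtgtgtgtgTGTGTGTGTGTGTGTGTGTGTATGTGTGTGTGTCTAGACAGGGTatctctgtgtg

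The 6-mers ACACAC and CACACA, searched on the strand of the peak and overlapping each other, stood for the CA-rich motif of IGF2BP3 and were rare on these genes. They occurred in 8 of 450 filtered member peaks in Lin- cells (1.78%, 95% Wilson interval 0.904 to 3.47%) and in 9 of 184 in CD11b+ cells (4.89%, 2.59 to 9.03%). Over all filtered peaks the shares were 8.25% and 16.4%. The intervals cover counting error only, and peaks of one region repeat across libraries. The matches were on Eif3b and Eif4g3 (4 peaks each), Eef2k (3), Eef1b2 (2) and, with 1 each, Eef1a1, Eef1akmt1, Eif2a and Eif4g2. None of the sequences shown above held either 6-mer. Member peaks had a median length of 42 bases in Lin- and 39 in CD11b+ cells, beside 48 and 51 over all peaks.

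The number of regions on a gene went with its level. Across the 60 genes Spearman's rho between the mean normalized count and the number of merged regions was 0.75 in Lin- and 0.61 in CD11b+ cells, while gene length gave 0.04 and -0.0015. These are descriptions across genes of the same libraries, and reads from abundant RNAs also give more peaks. Eif4g2 had 13 and 7 regions and Eef1a1 17 and 4, and Eif4g3 had 8 and 11.

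**Figure D4:**
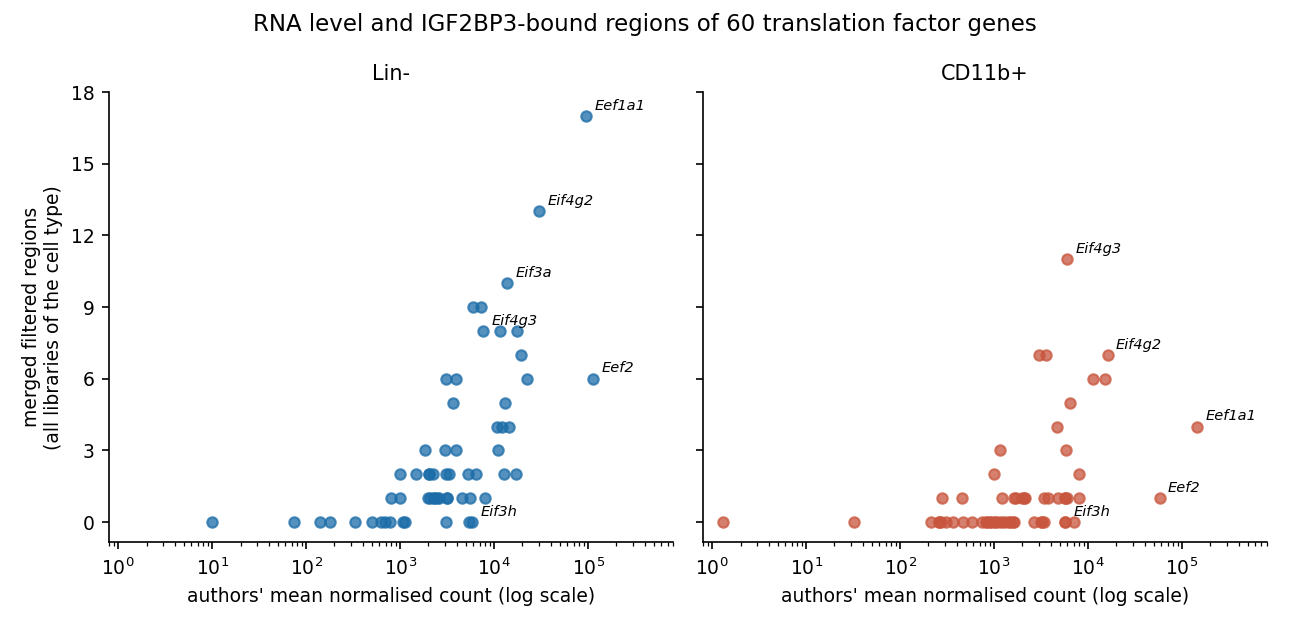
Number of merged regions with a filtered peak (y axis) against the authors' mean normalized count (x axis, log scale) for the 60 translation factor genes in Lin- (left) and CD11b+ cells (right). Points are genes; Eef1a1 has 17 regions in Lin- and 4 in CD11b+ cells, Eef2 has 6 and 1, and Eif4g3 is highest in CD11b+ cells with 11.

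Of 26 other genes of translation and its control, 23 had a filtered peak in Lin- and 19 in CD11b+ cells, and 16 and 6 had one in at least 2 biological libraries. Pabpc1, the poly(A)-binding protein that holds eIF4G, had 10, 7 and 12 peaks in the biological Lin- and 8 and 5 in the CD11b+ libraries. Larp1, which represses mRNAs of ribosomal proteins and translation factors, had 8, 6 and 3 against 2 and 1. Pdcd4, an inhibitor of eIF4A, had 0, 1 and 6 against 2 and 12. Mtor had none. The 83 cytoplasmic ribosomal protein genes took 1.26 to 2.15% of the filtered peaks of a biological Lin- library and 0.434 to 0.776% of a CD11b+ library, and 64 and 13 of them had a peak in at least 2 biological libraries. The 75 mitochondrial ribosomal protein genes took 0.149 to 0.219% and 0.0995 to 0.141%. The lower share in CD11b+ than in Lin- cells was thus common to all 4 lists.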

How the data were processed

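The members, lists and tests were chosen with earlier results of these data known. For RNA-seq, the authors mapped reads to mm10 with STAR 2.5.3a (version per the submitters' processing notes) and compared genotypes with DESeq2. The mean normalized count of each gene, deposited by the authors as a signal over 6 libraries, was the only value used. The deposited tables also hold log2 fold changes, errors, test statistics, p-values, adjusted p-values, peak annotations and a call, which were not used. For eCLIP, the authors called peaks per library with CLIPper and deposited each peak with a score of at most 0.05, read here as the CLIPper p-value. Per the file headers, deduplication and peak calling settings differed between eCLIP and smInput.

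Peaks were located by their midpoint in GENCODE M21 (basic set, GRCm38), with UTRs, coding exons and introns of the gene whose ID the peak carries. snoRNAs and scaRNAs were taken by overlap of at least 1 base on the same strand. Overlapping peaks of a gene on the same strand were merged into regions. Distances to splice sites run from the midpoint. Libraries were compared by exact two-sided permutation over biological replicates. The labels do not say that replicates came from separate animals, so p measures the spread between libraries. Comparisons of 3 with 2 or with 3 libraries allow no p below 0.1, and those of 2 with 2 none below 0.333. 44 alternatives were planned and more were added. Functions were tested on simulated data. Named genes were those with a filtered peak in at least 2 biological libraries of a cell type, the 10 with the most regions and the 5 with the highest level per kb in each cell type, unbound members among the 20 highest, and members with an input peak. Other members named to complete a role group, the genes named in the list of other translation genes and the results on snoRNAs and 3′ splice sites were chosen after their values were seen. Near-identical paralogs and pseudogenes (Eef1a1, Eif4a1 and Eif4a2, Eif3j1 and Eif3j2, Eif1 and Eif1b) can share reads. Analyses used Python 3.11.15, pandas 2.3.3, NumPy 2.4.6, SciPy 1.17.1, pyfaidx and matplotlib 3.10.9.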

Additional observations from a re-analysis of the deposited data

Results flagged for a closer look

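Of 43 groups of 4 or 6 libraries examined, 2 held a library farther from the others than Dixon's critical value at 95%. Technical and biological libraries were examined together, and among tied counts a difference of 1 is enough to pass. A rate by chance is therefore not known. Eif3f had 5 filtered peaks in Lin- library 2, against 1 or 2 in the other 5 Lin- libraries. In CD11b+ smInput library 1, 7 members had a peak, against 6 in each of the other 3 inputs. No explanation was tested for either.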

How the results depend on the processing

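The share of peaks on members, eCLIP against smInput, changed direction with small settings. In Lin- cells the difference of -0.053 percentage points became 0.838 members per 1000 genes with a peak and 0.828 percentage points without snoRNA peaks, and it ranged from -0.178 to 0.115 without 1 replicate. In CD11b+ cells the difference of -0.236 became 0.267 without snoRNA peaks and ranged from -0.57 (without replicate 2) to 0.0983 (without replicate 1), the latter with no test. In the replicate block, where each eCLIP library was set against its own input, the differences were -0.0532 (exact p = 1, smallest possible 0.25) and -0.236 (exact p = 1, smallest possible 0.5), and for the snoRNA share -51.5 (p = 0.25) and -28.2 (p = 0.5), each the smallest possible. No other call changed in the block. With technical libraries counted as replicates, which they are not, more p-values passed 0.05 by exact permutation: the snoRNA share differed by -45.9 in Lin- (p = 0.00216) and -27.0 in CD11b+ cells (p = 0.0286), members per library by 9.25 (p = 0.019), their share of peaks by 0.571 (p = 0.019) and the share near a 3′ splice site by 43.8 (p = 0.00952). At a CLIPper value below 0.001, 29 members in Lin- and 18 in CD11b+ cells were bound, against 46 and 29. A peak in at least 2 biological libraries left 14 in CD11b+ cells, and leaving out 1 biological library, biological libraries only, gave 17 to 18 there and 36 to 42 in Lin- cells. Eif4a1 was reversed before the filter (4.5 peaks). Of 222 values under alternatives, 197 kept their direction and side of the threshold or, where no test was made, their size. This tally does not measure how firm the results are. Many of the values were for genes picked by the order of their counts, so their direction was set by the choice. Where no p below 0.05 was possible, the side of the threshold could not change. No design with 3 against 2 libraries could pass 0.05.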
